A study of Mus musculus with 2 samples.

Results

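Among pancreatic cells of mouse embryos at stage E14.5, 147 cells held abundant Chgb RNA, no detected Neurog3 RNA and little islet hormone RNA. They were chosen from 1635 barcodes by their raw UMIs, the unique molecular identifiers that count captured RNA molecules. A cell of this Chgb-high hormone-low gate had at least 1000 UMIs, at most 20% of them from mt- genes, at least 3 Chgb UMIs and 0 Neurog3 UMIs. It also had under 10 UMIs of Ins1 and Ins2 together, under 3 of Gcg, under 3 of Ghrl, under 5 of Pyy, under 10 of Sst, and under 15 of the acinar genes Cpa1, Ctrb1, Pnliprp1 and Clps together. Library 1 gave 62 of the cells and library 2 gave 85. Since these UMIs made the choice, the levels of those genes in the gate are a description and were not tested.

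The libraries form 1 wild-type group and were both made on the inDrop droplet platform from cells flow-sorted for low and high Ngn3eGFP, a green fluorescent reporter of Neurog3. The labels do not say whether the libraries came from separate embryos, nor which cells came from which sort gate. The main fits took out the average difference between libraries, so their p-values measure only how unevenly group differences repeated across these libraries. This spread, pooled over all groups of a fit, may be technical. The sort can set what share of the cells falls in any gate.

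In the developing pancreas, the transcription factor Neurog3 switches on briefly in trunk epithelium and starts endocrine differentiation. Cells switch on factors such as Neurod1, Nkx2-2, Pax4 and the ETS-family factor Fev, and shut Neurog3 off. They begin to make the granins that pack secretory granules before they make much hormone. Fev is best known as a factor of serotonergic neurons, and beta cells share several genes with those neurons. Chgb encodes chromogranin B, a granule protein of endocrine cells.

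The gate cells were set beside 3 other groups from the same libraries that also had at least 3 Chgb UMIs. Double-positive cells met every limit of the gate except that they had at least 1 Neurog3 UMI, with 19 cells in library 1 and 35 in library 2. Insulin-high cells had 0 Neurog3 UMIs, at least 10 UMIs of Ins1 and Ins2 together and the gate's limits on Gcg, Sst and acinar genes, with 27 and 68 cells. Glucagon-positive cells had 0 Neurog3 UMIs, at least 3 Gcg UMIs and the gate's limits on insulin, Sst and acinar genes. They were 7 and 11 cells, so values for them rest on few cells. Insulin-high and glucagon-positive cells had no limit on Ghrl or Pyy. The gate's Ghrl and Pyy limits were met by 19 and 53 of the insulin-high cells but by only 1 and 1 of the glucagon-positive cells. Immune-like cells, with at least 5 UMIs over 8 immune genes, served as cells that should lack endocrine RNA, with 11 and 62 cells.

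The promoters of 3 genes on which the results turn are shown for orientation: Chgb, which the gate required, Fev, which divided the gate cells, and Iapp, which differed most between the gate and insulin-high cells among genes of the islet hormone list. Each run is the 250 bases before the RefSeq start on GRCm38.p6, written 5′ to 3′ on the gene's strand. Capitals mark matches to CAGNTG or CANCTG, which are each other's reverse complement and belong to the E-boxes read by factors of the Neurog3 and Neurod1 class. Such a match is a description of letters and not a binding site.
Chgb, chr2:132781392-132781641, plus strand: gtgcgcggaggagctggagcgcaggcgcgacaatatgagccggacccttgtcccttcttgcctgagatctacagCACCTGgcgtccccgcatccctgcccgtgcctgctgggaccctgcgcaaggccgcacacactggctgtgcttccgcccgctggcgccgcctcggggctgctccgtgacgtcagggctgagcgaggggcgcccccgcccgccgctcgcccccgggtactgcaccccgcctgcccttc
Fev, chr1:74885409-74885658, minus strand: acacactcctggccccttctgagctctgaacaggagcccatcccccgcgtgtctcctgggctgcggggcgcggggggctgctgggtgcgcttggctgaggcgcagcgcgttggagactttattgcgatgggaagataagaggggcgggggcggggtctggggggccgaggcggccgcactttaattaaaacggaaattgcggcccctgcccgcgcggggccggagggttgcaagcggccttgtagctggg
Iapp, chr6:142298175-142298424, plus strand: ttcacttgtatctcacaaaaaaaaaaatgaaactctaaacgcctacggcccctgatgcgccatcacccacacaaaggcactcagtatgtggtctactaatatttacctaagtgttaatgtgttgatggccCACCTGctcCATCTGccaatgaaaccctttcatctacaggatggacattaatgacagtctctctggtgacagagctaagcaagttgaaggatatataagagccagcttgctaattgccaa
Chgb had 1 match, Fev had 0 and Iapp had 2, while 14723 of 32851 promoter windows of this length (44.8%) held at least 1. On GRCm38, Chgb lies at chr2:132781278-132795079 on the plus strand, Fev at chr1:74881509-74885419 on the minus strand and Iapp at chr6:142298423-142303961 on the plus strand, each a protein-coding gene whose exons overlap no other gene. The Chgb run lies wholly within these gene bounds, because the annotated gene begins upstream of the RefSeq start used for the run.

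The libraries held 535 and 1100 barcodes with 1910588 and 3425983 UMIs. Gate cells made up 11.7% of the barcodes within the UMI and mt- limits in library 1 (exact binomial 95% interval 9.12% to 14.8%) and 7.86% in library 2 (6.33% to 9.63%). Their median depth was 3081.5 UMIs in library 1 and 2740 UMIs in library 2. All intervals here cover counting error only. Scrublet called 1 gate cell a doublet in library 1 and 0 in library 2. The libraries shared 3 cell barcodes, and 0 of these were in the gate.

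Chgb stood at 6113 and 6127 CPM, the usual count scaled to the total UMIs of the group, in gate cells of libraries 1 and 2. It was at 4947 and 4942 CPM in double-positive cells, 2320 and 3012 CPM in insulin-high cells, and 1650 and 2864 CPM in glucagon-positive cells. By these levels gate cells carried the most Chgb of the groups in both libraries. Every group had to have at least 3 UMIs, a limit that is a lower CPM in deeper cells. Median depths were 3838 and 3384 UMIs in double-positive, 4467 and 3715 in insulin-high and 4105 and 3018 in glucagon-positive cells. In gate cells they were 3081.5 and 2740 UMIs. The part of the limit and of depth in this ranking was not tested. Per cell, the lowest, median and highest Chgb counts in the gate were 3, 15.5 and 76 UMIs in library 1 and 3, 11 and 68 UMIs in library 2. In immune-like cells, which should lack the gene, Chgb was at 26.0 and 33.2 CPM. At the edge of the limit, 3 cells in each library had 3 Chgb UMIs and were in, while 7 and 11 cells that met every other limit had 2 and were out.

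Hormone RNA was low, as the limits required. Ins1 was at 99.2 and 91.2 CPM in gate cells, and at 78.1 and 193 CPM in immune-like cells of the same libraries, and Ins2 at 208 and 133 CPM in gate cells and 156 and 238 CPM in immune-like cells. Gcg was at 64.5 and 41.5 CPM in gate cells and at 78.1 and 426 CPM in immune-like cells, and Sst at 24.8 and 49.7 CPM in gate cells and 26.0 and 33.2 CPM in immune-like cells. Pyy was at 119 and 174 CPM and Ghrl at 44.7 and 16.6 CPM in gate cells, and 45 of 62 and 62 of 85 gate cells had 0 Pyy UMIs. Since the gate capped all of these genes, their levels are not a result. Few cells lay at the insulin limit: 2 and 1 cells had 9 insulin UMIs, and 0 cells in either library had 10 and met every other limit. At the Pyy limit, 0 and 3 cells had 4 UMIs and were in, while 3 and 1 had 5 and were out. In all, the Pyy limit alone kept out 16 and 27 cells, of which 9 and 13 had Fev detected. The edge of the Neurog3 limit was more crowded, since 11 and 18 cells met every other limit and had 1 Neurog3 UMI. A count of 0 does not show that a cell lacked Neurog3 RNA, and gate cells were shallower than double-positive cells. How many gate cells held uncaptured Neurog3 RNA was not tested.

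The markers named for this stage were present. Vdr, the vitamin D receptor, was at 218 and 323 CPM in gate cells, against 0 and 33.2 CPM in immune-like cells. Runx1t1, a transcriptional corepressor, was at 278 and 423 CPM in gate cells, against 104 and 88.4 CPM in immune-like cells. Fev was at 655 and 800 CPM in gate cells, against 0 and 22.1 CPM in immune-like cells. These levels fit the endocrine part of the label, and the counts hold no record of what the cells would later become. Markers of other cell types were present at differing levels. Of 8 immune markers 5 were detected in the gate in each library, with a sum of 84.4 and 99.5 CPM, and Tyrobp and Lyz2 were at 0. The 4 erythroid markers summed to 0 and 4.15 CPM, the 5 mesenchymal ones to 79.4 and 87.0 CPM, and the 4 endothelial ones to 64.5 and 95.3 CPM. The 7 trunk and duct markers summed to 908 and 767 CPM, against 1041 and 1087 CPM in double-positive cells and 524 and 743 CPM in insulin-high cells. The 5 neural markers summed to 268 and 149 CPM in gate cells, against 162 and 316 CPM in double-positive cells and 133 and 84.3 CPM in insulin-high cells. The 7 acinar markers, some of which the gate limited, summed to 198 and 203 CPM. The part of these marker levels in the results below was not tested.

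**Figure D1:**
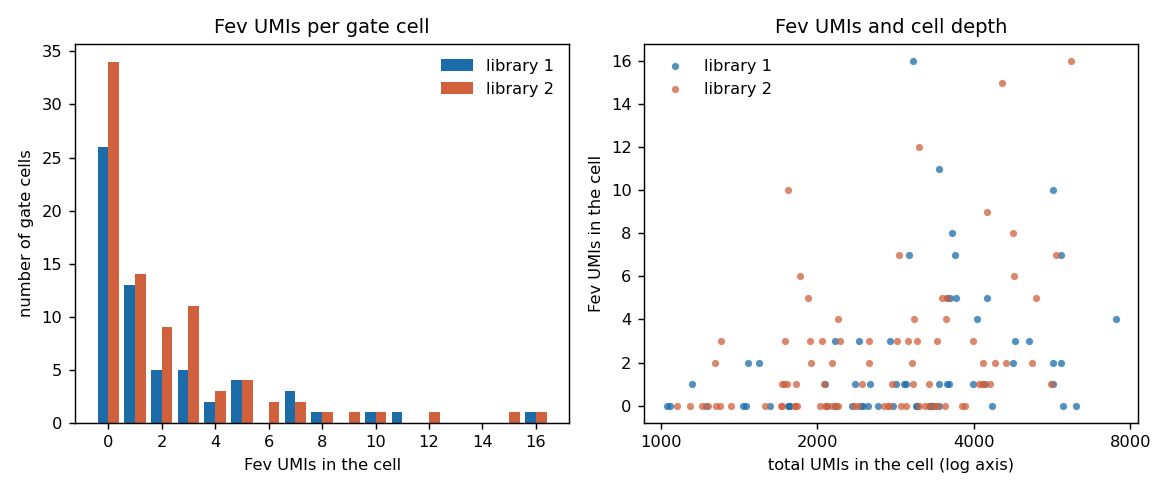
Fev UMIs in the 147 gate cells, by library. Left, the number of cells (vertical axis) with each number of Fev UMIs, where 26 cells of library 1 and 34 of library 2 had 0 and the highest count was 16. Right, Fev UMIs against the total UMIs of the same cells on a log axis, where 36 of 62 cells of library 1 and 51 of 85 of library 2 lie above 0 and cells without a Fev UMI occur at low and high depth.

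Fev RNA was detected in 36 of 62 gate cells of library 1 (58.1%, exact binomial 95% interval 44.8% to 70.5%) and in 51 of 85 of library 2 (60.0%, 48.8% to 70.5%). The libraries did not differ beyond these intervals. Among cells with the gene detected, the lowest, median and highest counts were 1, 2.5 and 16 Fev UMIs in library 1 and 1, 3 and 16 in library 2. Fev-detected cells were the deeper ones, with medians of 3570.5 and 3051 UMIs, against 2440.5 and 2154.5 UMIs in Fev-undetected cells. With every cell thinned to 1000 UMIs the share was 33.9% in library 1 (22.3% to 47.0%) and 42.4% in library 2 (31.7% to 53.6%), so detection moved with depth. In immune-like cells, with median depths of 2893 and 2894 UMIs, Fev was detected in 0 of 11 cells and 4 of 62 (6.45%), and after thinning in 0 of 11 and 2 of 62 (3.23%). The gate's thinned share was above that background beyond the intervals in library 2 (upper bound 11.2%), while in library 1 the 11 immune-like cells allow up to 28.5% and the intervals overlapped. Fev was detected in 84.2% and 68.6% of double-positive cells (47.4% and 60.0% after thinning) and in 18.5% and 27.9% of insulin-high cells (3.70% and 10.3% after thinning). In glucagon-positive cells it was detected in 1 of 7 and 0 of 11, and after thinning in 0 of 7 and 0 of 11, which allows up to 41.0% and 28.5% (exact binomial).

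At the edges of the gate, 11 of 11 and 13 of 18 cells with 1 Neurog3 UMI had Fev detected. Of the cells just outside on the Chgb side, with 2 Chgb UMIs, 1 of 7 and 2 of 11 had it.

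Of the serotonin genes, the defining enzymes were near background. Tph1 and Tph2, the enzymes of the first step of serotonin synthesis, were at 24.8 and 16.6 CPM and at 4.96 and 12.4 CPM in the gate. Tph1 was at 0 and 38.7 CPM in immune-like cells. Gch1, which makes a cofactor of the tryptophan hydroxylases, was at 323 and 497 CPM in gate cells, against 0 and 16.6 CPM in immune-like cells, but insulin-high cells had a like level of 333 and 349 CPM. Ddc, the decarboxylase of the second step, was at 124 and 228 CPM. The transporters Slc6a4, Slc18a1 and Slc18a2 stood between 4.15 and 29.8 CPM in the gate, where 1 UMI is worth about as much as the lowest of these values.

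Within the gate, Fev-detected and Fev-undetected cells differed in 1 gene of 3261 tested (0.0307%), with 0 genes higher and 1 lower in Fev-detected cells. The fit was edgeR's quasi-likelihood test on UMIs summed per library and group, with library as a block and Benjamini-Hochberg adjustment at 0.05. The gene was Iapp, which encodes islet amyloid polypeptide, the peptide released together with insulin. Iapp was at 60.2 and 227 CPM in Fev-detected cells, against 233 and 909 CPM in Fev-undetected cells, a fitted log2 fold change of -1.96 ± 0.37 with its SE (adjusted p = 0.0109 in edgeR). It was lower in Fev-detected cells in both libraries, but the highest Fev-detected value lay just under the lowest Fev-undetected one. An Iapp UMI was found in 7 of 36 and 4 of 51 Fev-detected cells, against 5 of 26 and 13 of 34 Fev-undetected cells, so in library 1 the shares of cells were close. In library 2, 1 cell gave 27 of the 71 Iapp UMIs of the Fev-undetected cells. The call was lost in DESeq2 (log2 fold change -2.004, adjusted p = 0.235), without the library block (-1.95, edgeR adjusted p = 0.645) and with at least 2000 UMIs per cell (-2.20, edgeR adjusted p = 0.153), at log2 fold changes about as large. In immune-like cells Iapp was at 26.0 and 44.2 CPM.

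Unadjusted p was under 0.05 for 73 genes higher and 72 lower, and DESeq2 called 0 genes. On simulated data the edgeR fit recovered 23.4% of 2-fold changes, so differences of that size can be missed. Nnat and Rbp4 were next by p and did not pass. Nnat, the imprinted gene of neuronatin, was at a log2 fold change of -1.16 ± 0.27 (edgeR adjusted p = 0.182). Rbp4, a retinol carrier, was at -1.11 ± 0.28 (edgeR adjusted p = 0.277). Both had lower levels in Fev-detected cells in both libraries, without reaching the threshold.

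Vdr and Runx1t1 were more abundant beside Fev without passing the test. Vdr was at 263 and 355 CPM in Fev-detected cells, against 131 and 256 CPM in Fev-undetected cells. Runx1t1 was at 361 and 472 CPM in Fev-detected cells, against 117 and 320 CPM in Fev-undetected cells, a log2 fold change of 0.96 ± 0.37 (edgeR adjusted p = 0.999). The direction was the same in both libraries for both genes. Pdx1, a homeobox factor of beta cells and earlier progenitors, was at 211 and 423 CPM in Fev-detected cells, against 452 and 640 CPM in Fev-undetected cells. It did not pass (edgeR adjusted p = 0.999).

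Detection of Fev together with other genes was counted per cell. Vdr was detected in 21 and 45 cells, 14 and 33 of them with Fev, and Runx1t1 in 24 and 43 cells, 18 and 32 of them with Fev. Pax4, a homeobox factor needed for beta cells, was detected in 9 and 14 cells, 4 and 11 of them with Fev. After thinning to 1000 UMIs, Fev was found in 4 of 9 and 9 of 16 cells with Vdr, 7 of 13 and 13 of 27 with Runx1t1, and 1 of 4 and 4 of 8 with Pax4, beside Fev in 21 of 62 and 36 of 85 gate cells. These are descriptions of sparse counts. Of 24 endocrine transcription factors tested within the gate, 0 passed in either direction, and their median log2 fold change was -0.03, beside 0.00 over all genes tested. Of 30 genes of protein folding and translocation in the endoplasmic reticulum (ER), 0 passed and 22 were on the lower side in Fev-detected cells, with a median of -0.31.

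**Figure D2:**
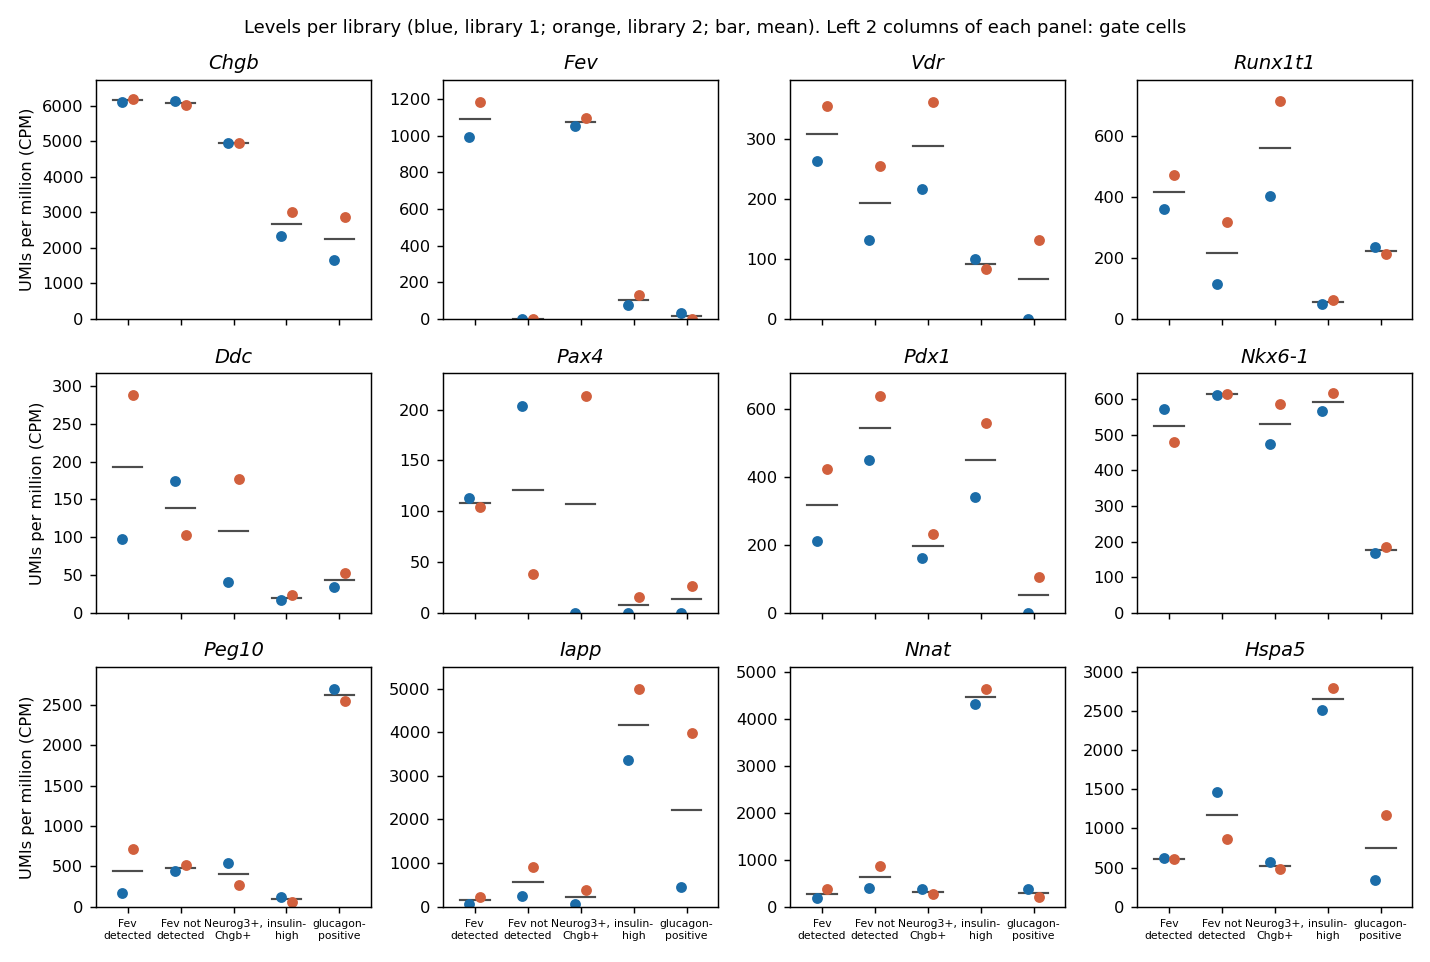
Levels of 12 genes in CPM (linear axes from 0) in 5 groups of cells, with 1 point for each library and a bar for their mean. Fev is at 0 in Fev-undetected cells by definition and Chgb was used by the gate. By their means, Iapp, Nnat and Hspa5 are highest in insulin-high cells, and Peg10 in glucagon-positive cells.

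Double-positive cells had Neurog3 at 1068 and 1273 CPM. Set against them, the gate cells differed in 0 of 3868 genes (0%) by edgeR at an adjusted p under 0.05. Unadjusted p was under 0.05 for 95 genes higher and 75 lower, and DESeq2 called 0 genes. On simulated data the edgeR fit recovered 22.7% of 2-fold changes, so differences of that size can be missed. Fev was at 655 and 800 CPM in gate cells, against 1054 and 1096 CPM in double-positive cells, a log2 fold change of -0.58 ± 0.23 (edgeR adjusted p = 0.914). Its level was lower in gate cells in each library without passing. Vdr, at 218 and 323 CPM in gate cells and 216 and 362 CPM in double-positive cells, lay within the spread between libraries. The gene nearest to the threshold was Cldn6, a tight junction protein of early epithelium, at 149 and 141 CPM in gate cells, against 595 and 381 CPM in double-positive cells, a log2 fold change of -1.72 ± 0.35 (edgeR adjusted p = 0.0832). Pdx1 was at 293 and 493 CPM in gate cells, against 162 and 232 CPM in double-positive cells, without passing (edgeR adjusted p = 0.826).

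The gate was also set against the double-positive cells that held more Neurog3 RNA. Against the 8 and 14 double-positive cells with at least 3 Neurog3 UMIs, 22 genes were higher in gate cells (0.85% of 2588 tested) and 7 were lower (0.27%), 29 in all (1.12%) by edgeR at an adjusted p under 0.05. Fewer genes and cells entered this fit, and the cause of the higher count was not tested. DESeq2 was not run on this contrast, so its calls rest on edgeR alone. Of 22 endocrine transcription factors tested, 1 rose and 1 fell, and 14 of the 22 had negative log2 fold changes, with a median of -0.39, beside 0.04 over all genes. Isl1, a LIM-homeobox factor needed for islet cells, was at 228 and 489 CPM in gate cells, against 67.8 and 70.9 CPM in these Neurog3-rich cells (log2 fold change 2.41 ± 0.60). Pdx1 was at 293 and 493 CPM in gate cells, against 0 and 165 CPM in Neurog3-rich cells (2.15 ± 0.57). Both were higher in each library, with edgeR adjusted p of 0.024 and 0.0383. The Neurog3-rich cells held 5 Isl1 and 7 Pdx1 UMIs, so these folds rest on few UMIs.

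Others that rose were Rbp4 (2.03 ± 0.45), Ttr, a thyroid hormone carrier abundant in alpha cells (1.62 ± 0.31), Hspa5, the main chaperone of the ER (1.33 ± 0.33), and Atp2a2, the calcium pump that fills the ER (2.21 ± 0.40). Of 28 ER folding genes tested, 2 rose, Hspa5 and Manf, and 0 fell. Iapp rested on 1 UMI in the Neurog3-rich cells and Peg10 on 3, so no fold is given for them. The 7 genes that fell included Mdk, a growth factor of embryonic epithelia, at 248 and 361 CPM in gate cells, against 1084 and 1182 CPM in Neurog3-rich cells (-1.84 ± 0.32). Cldn6 was at 149 and 141 CPM in gate cells, against 881 and 496 CPM in Neurog3-rich cells (-2.13 ± 0.43). Nkx2-2, a homeobox factor of all islet lineages, was at 700 and 667 CPM in gate cells, against 1220 and 1702 CPM in Neurog3-rich cells (-1.05 ± 0.27). The genes named in this contrast were picked after their values were seen.

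**Figure D3:**
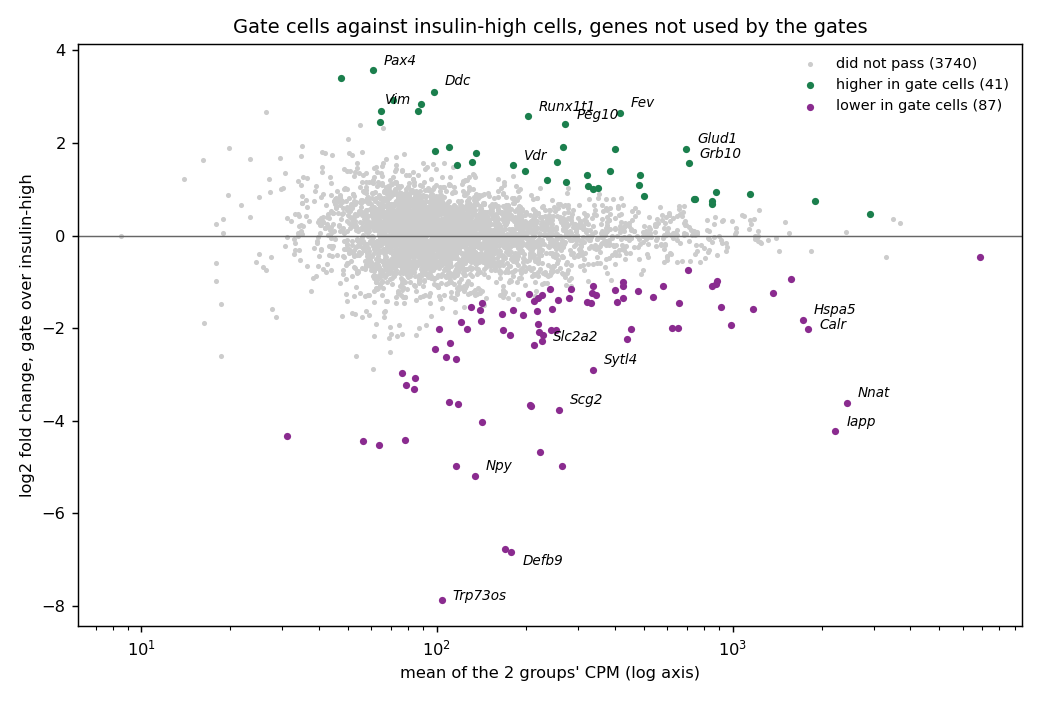
Log2 fold change of gate over insulin-high cells (vertical axis, edgeR fit over both libraries) against the mean of the groups' CPM (log axis), for 3868 genes that no gate used. The 41 genes higher and 87 genes lower at an adjusted p under 0.05 are coloured, and Iapp and Nnat stand out as low in gate cells at high mean levels.

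Against insulin-high cells, 41 of 3868 genes were higher in gate cells (1.06%) and 87 were lower (2.25%) at an edgeR adjusted p under 0.05, 128 in all (3.31%). Cells entered the groups by their insulin UMIs, so Ins1 and Ins2 were not tested. DESeq2 called 7 higher and 30 lower. The counts given below for each list are to be read beside the shares of 1.06% higher and 2.25% lower over all genes. For 0 of the 128 genes did 1 cell give over 50% of the higher group's UMIs.

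Endocrine transcription factors held the most rises of any list. Of 27 tested, 9 rose and 1 fell, with a median log2 fold change of 1.03, beside 0.03 over all genes. Fev was at 655 and 800 CPM in gate cells, against 74.9 and 130 CPM in insulin-high cells, a fitted log2 fold change of 2.65 ± 0.28 with its SE (adjusted p = 2.96e-08 in edgeR). Runx1t1 was at 278 and 423 CPM in gate cells, against 49.9 and 61.3 CPM in insulin-high cells (2.57 ± 0.37, edgeR adjusted p = 6.18e-06). Both were several times higher in each library. Vdr was at 218 and 323 CPM in gate cells, against 99.8 and 84.3 CPM in insulin-high cells (1.52 ± 0.41, edgeR adjusted p = 0.0252).

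Pax4 was at 144 and 82.9 CPM in gate cells, against 0 and 15.3 CPM in insulin-high cells, which held 4 Pax4 UMIs in all. Its log2 fold change of 3.57 ± 0.95 (edgeR adjusted p = 0.0238) was lost in DESeq2, without the library block and with at least 2000 UMIs per cell. Of 10 alpha-lineage factors tested, 2 rose and 0 fell, Pou3f4 and Foxp1. Pou3f4, a POU-domain factor of alpha cells, was at 74.4 and 104 CPM in gate cells, against 0 and 11.5 CPM in insulin-high cells, from 3 UMIs there. Its call was lost in DESeq2 (adjusted p = 0.136). Foxp1, a forkhead factor, was at 466 and 390 CPM in gate cells, against 108 and 99.6 CPM in insulin-high cells (1.92 ± 0.31, edgeR adjusted p = 5.6e-05). Pax4 and Pou3f4 rest on few UMIs. Neurod1 (1.03 ± 0.26), Nkx2-2 (1.10 ± 0.25), Rfx6 (1.82 ± 0.51), the splicing factor gene Celf3 (1.19 ± 0.32) and the imprinted zinc-finger gene Peg3 (0.89 ± 0.17) also rose, which completes the 9. Mlxipl, a glucose-responsive factor, fell by 1.10 ± 0.29 on the log2 scale. Pdx1, at 293 and 493 CPM in gate cells and 341 and 559 CPM in insulin-high cells, and Nkx6-1, a homeobox factor of beta cells, at 586 and 522 CPM in gate cells and 566 and 617 CPM in insulin-high cells, were within the spread between libraries.

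Of 5 serotonin genes tested, 2 rose and 1 fell. Beside Fev, Ddc was at 124 and 228 CPM in gate cells, against 16.6 and 23.0 CPM in insulin-high cells (3.09 ± 0.58, edgeR adjusted p = 5.51e-04), a call lost in DESeq2 (adjusted p = 0.0567). Maob, an enzyme that breaks down amines, was at 74.4 and 108 CPM in gate cells, against 466 and 234 CPM in insulin-high cells (-1.92 ± 0.41, edgeR adjusted p = 0.00258).

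Iapp, other peptide genes and some granule genes fell. Iapp was at 119 and 448 CPM in gate cells, against 3368 and 4982 CPM in insulin-high cells, a log2 fold change of -4.23 ± 0.29 (edgeR adjusted p = 6.63e-13). The peptide genes Npy, at 9.92 and 4.15 CPM in gate cells against 208 and 314 CPM in insulin-high cells, and Gip, at 0 and 8.29 CPM in gate cells against 158 and 88.1 CPM in insulin-high cells, rested on 3 and 2 UMIs in the gate. In insulin-high cells 32 of the 107 Npy UMIs came from 1 cell. Of 16 genes of the granin and prohormone processing list, which was tested without Chgb, 0 rose and 4 fell. Scg2, the granin secretogranin II, was at 19.8 and 53.9 CPM in gate cells, against 482 and 483 CPM in insulin-high cells (-3.76 ± 0.43, edgeR adjusted p = 1.3e-07). Scg3 (-1.09 ± 0.22), the prohormone convertase gene Pcsk2 (-0.94 ± 0.19) and the G protein locus Gnas (-0.47 ± 0.12) fell less. Chga, the gene of chromogranin A, had a log2 fold change of 0.41 ± 0.21 and did not pass (edgeR adjusted p = 0.443). Sytl4, whose product granuphilin docks insulin granules, was at 84.4 and 82.9 CPM in gate cells, against 640 and 544 CPM in insulin-high cells (-2.89 ± 0.35, edgeR adjusted p = 3.71e-07). It was the only 1 of 20 exocytosis genes to pass.

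**Figure D4:**
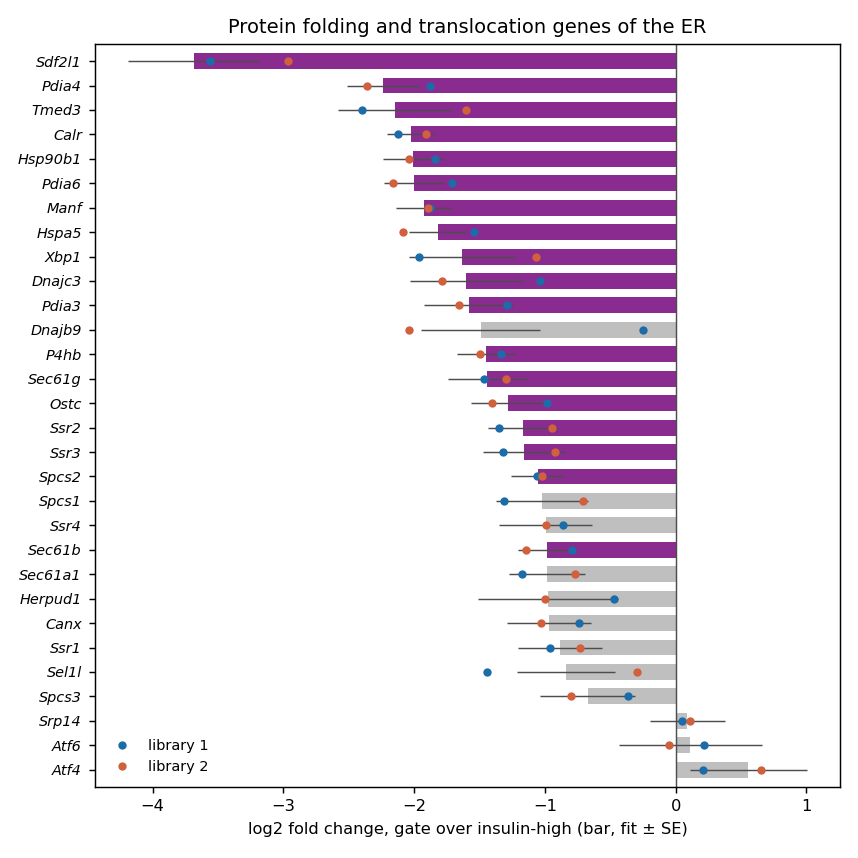
Log2 fold change of gate over insulin-high cells for the 30 tested genes of protein folding and translocation in the ER, as bars with the SE of the fit and points for each library. The 18 genes that fell are in purple, and 27 of the 30 bars lie below 0.

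The ER folding list held the most calls of any list. Of 30 genes tested, 18 fell and 0 rose, with a median log2 fold change of -1.23, beside 0.03 over all genes. Calr, the chaperone calreticulin, was at 680 and 817 CPM in gate cells, against 2836 and 2889 CPM in insulin-high cells (-2.03 ± 0.18, edgeR adjusted p = 9.92e-10). Hspa5 was at 908 and 696 CPM in gate cells, against 2520 and 2793 CPM in insulin-high cells (-1.82 ± 0.22, edgeR adjusted p = 2.6e-07). Manf, a secreted ER stress protein whose exons overlap another gene, was at 442 and 427 CPM in gate cells, against 1564 and 1514 CPM in insulin-high cells (-1.92 ± 0.21, edgeR adjusted p = 6.67e-08). In each case the libraries of a group lay close together and far from the other group. Of the disulfide isomerase genes that fell, Pdia4 was at -2.24 ± 0.27, Pdia3 at -1.58 ± 0.34 and P4hb at -1.45 ± 0.22. Sdf2l1, at 19.8 and 41.5 CPM in gate cells against 374 and 399 CPM in insulin-high cells, had the lowest fold change of the list, at -3.68 ± 0.50. Xbp1, the transcription factor of the unfolded protein response, fell by 1.63 ± 0.41, while Atf4 and Atf6, at 0.55 ± 0.45 and 0.11 ± 0.54, did not pass. Translocon and signal peptidase genes fell less, with Sec61b at -0.99 ± 0.22 and Spcs2 at -1.06 ± 0.20. Atp2a2 was at 571 and 655 CPM in gate cells, against 1630 and 1832 CPM in insulin-high cells (-1.59 ± 0.20).

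Of 12 glucose handling genes tested, 3 fell and 0 rose. Slc2a2, the glucose transporter GLUT2, was at 89.3 and 74.6 CPM in gate cells, against 366 and 376 CPM in insulin-high cells (-2.27 ± 0.38, edgeR adjusted p = 1.15e-04). G6pc2, the islet glucose-6-phosphatase, had a log2 fold change of -2.03 ± 0.52 and Pkm, pyruvate kinase, of -1.08 ± 0.26. Ffar1, a receptor of long-chain fatty acids, was at -2.02 ± 0.46, and Rbp4 at -1.55 ± 0.22.

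Imprinted genes moved both ways, with 3 higher and 3 lower of 13 tested. Nnat was at 253 and 531 CPM in gate cells, against 4317 and 4641 CPM in insulin-high cells (-3.62 ± 0.21, edgeR adjusted p = 1.09e-14), the lowest adjusted p of the comparison. Dlk1, a Notch-like surface protein, was at 546 and 597 CPM in gate cells, against 948 and 1330 CPM in insulin-high cells (-1.09 ± 0.21). Grb10, an adaptor that dampens insulin and IGF receptor signals, was at 987 and 1161 CPM in gate cells, against 349 and 345 CPM in insulin-high cells (1.56 ± 0.22, edgeR adjusted p = 6.48e-06). Peg10 was at 263 and 647 CPM in gate cells, against 116 and 61.3 CPM in insulin-high cells (2.40 ± 0.37). Peg3 was named above among the factors, and Gnas, also imprinted, among the granule genes.

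Of 18 neuronal, microtubule and migration genes tested, 1 rose and 3 fell. Mapt, the microtubule protein tau, was at 49.6 and 95.3 CPM in gate cells, against 333 and 376 CPM in insulin-high cells (-2.36 ± 0.40), and Tuba1a, an alpha-tubulin, and Gng12, a G protein subunit, fell by less. Marcks, a membrane and actin-binding protein, had a log2 fold change of 1.30 ± 0.23. Of 16 trunk and duct genes tested, 2 rose and 0 fell: Cldn4, a tight junction protein (1.79 ± 0.42), and Vim, the intermediate filament vimentin, at 208 and 108 CPM in gate cells, against 16.6 and 19.2 CPM in insulin-high cells (2.84 ± 0.63). Of 71 ribosomal protein genes, 2 rose and 0 fell, with a median of 0.09, beside 0.03 over all genes. Over all genes tested 1.06% rose and 2.25% fell, so these few ribosomal calls are not read as a trait of the list.

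Other genes with large differences belonged to no list. Trp73os, a noncoding RNA antisense to Trp73, had 0 UMIs in the gate cells of both libraries and 78 in insulin-high cells, at least 30.2-fold lower in the gate when 3 counts over both libraries are taken as the floor. Use of strand in the counting is not given, so reads of Trp73 itself cannot be told apart. Cpne5, a calcium-dependent lipid-binding protein, was at 14.9 and 16.6 CPM in gate cells, against 649 and 376 CPM in insulin-high cells (-4.99 ± 0.49). Defb9 and Tceal6 had 1 UMI each in the gate, against 116 and 110 UMIs in insulin-high cells, and DESeq2 did not call them. Fam83e had 3 UMIs in the gate and 85 in insulin-high cells, and Olfr1442 had 8 in the gate and 157 in insulin-high cells. On the higher side, Pdk3, a pyruvate dehydrogenase kinase, was at 94.3 and 158 CPM in gate cells, against 16.6 and 15.3 CPM in insulin-high cells (2.93 ± 0.63). Pcyt1b, of phosphatidylcholine synthesis, was at 154 and 153 CPM in gate cells, against 8.32 and 30.7 CPM in insulin-high cells (2.69 ± 0.57), and Ppp1r14c, an inhibitor of protein phosphatase 1, rose by 2.69 ± 0.75. DESeq2 called none of Vim and these 3 (adjusted p from 0.074 to 0.466).

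**Figure D5:**
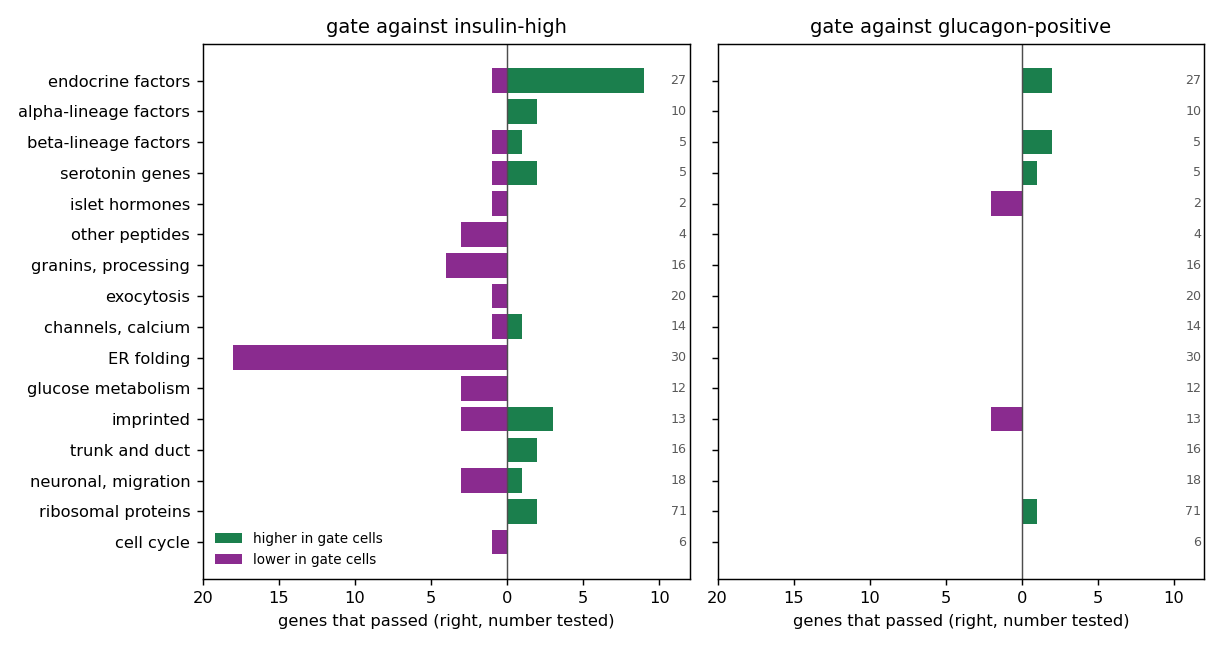
Numbers of genes (horizontal axis, counted away from 0 on both sides) that passed higher or lower in gate cells, for 16 gene lists, against insulin-high cells (left) and glucagon-positive cells (right). Numbers at the right edge are genes tested. The ER folding list has 18 genes lower against insulin-high cells and 0 against glucagon-positive cells.

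Against the 18 glucagon-positive cells, 13 of 3868 genes were higher in gate cells (0.336%) and 19 were lower (0.491%), 32 in all (0.827%), by edgeR at an adjusted p under 0.05. DESeq2 called 1 higher and 14 lower. Most glucagon-positive cells also exceeded the gate's Ghrl or Pyy limit, so this is not a contrast of glucagon alone. The part of those limits in the calls was not tested. Fev had 325 UMIs in gate cells, at 655 and 800 CPM, against 1 UMI in glucagon-positive cells, at 33.7 and 0 CPM, a ratio that rests on that UMI (edgeR adjusted p = 9.61e-07). It was called by DESeq2 too.

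Of 5 beta-lineage factors tested, 2 were higher in the gate and 0 were lower. Pdx1 was at 293 and 493 CPM in gate cells, against 0 and 106 CPM in glucagon-positive cells (2.80 ± 0.59, edgeR adjusted p = 0.00735), which held 4 of its UMIs. Nkx6-1 was at 586 and 522 CPM in gate cells, against 168 and 186 CPM in glucagon-positive cells (1.68 ± 0.38, edgeR adjusted p = 0.0181). Sox4, a factor of endocrine progenitors, was at 268 and 319 CPM in gate cells, against 33.7 and 26.5 CPM in glucagon-positive cells, which held 2 of its UMIs. DESeq2 called none of these 3. Of 10 alpha-lineage factors 0 passed. Irx1, an Iroquois factor of alpha cells, was at 14.9 and 24.9 CPM in gate cells, against 168 and 345 CPM in glucagon-positive cells (-3.57 ± 0.93, edgeR adjusted p = 0.0594). Its level was lower in the gate in each library without passing.

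Ffar2, a receptor of short-chain fatty acids, had 101 UMIs in gate cells and 0 in glucagon-positive cells, at least 5.12-fold higher with 3 counts over both libraries as the floor. Rassf3, a Ras-association protein, had 70 UMIs in gate cells and 0 in glucagon-positive cells, at least 3.55-fold higher. Emb, the adhesion protein embigin, was at 650 and 676 CPM in gate cells, against 135 and 186 CPM in glucagon-positive cells (2.07 ± 0.39), and Npepl1, an aminopeptidase, at 313 and 373 CPM in gate cells, against 67.4 and 53.0 CPM in glucagon-positive cells (2.57 ± 0.59). The fold of Npepl1 rests on 4 UMIs in glucagon-positive cells. DESeq2 called none of Ffar2, Rassf3, Emb and Npepl1.

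Both hormone genes that could be tested were lower in the gate. The gate limited Pyy, a marker of the same cell type as Ppy, and Ghrl, while glucagon-positive cells had no such limit. The part of this choice of cells in the levels of Ppy and Iapp was not tested. Ppy, pancreatic polypeptide, was at 59.5 and 29.0 CPM in gate cells, against 269 and 398 CPM in glucagon-positive cells (-2.96 ± 0.68, edgeR adjusted p = 0.0202), where 11 of 23 UMIs came from 1 cell. Iapp was at 119 and 448 CPM in gate cells, against 438 and 3978 CPM in glucagon-positive cells (-2.84 ± 0.32), and the groups' values overlapped. Peg10 was at 263 and 647 CPM in gate cells, against 2695 and 2546 CPM in glucagon-positive cells (-2.47 ± 0.29, edgeR adjusted p = 9.61e-07), so gate cells lay between insulin-high and glucagon-positive cells in this gene, and above insulin-high cells by the test given before. Tmem27, collectrin, was at 64.5 and 124 CPM in gate cells, against 1111 and 1034 CPM in glucagon-positive cells (-3.40 ± 0.43). Sdhc, a subunit of respiratory complex II, was at 159 and 120 CPM in gate cells, against 1111 and 902 CPM in glucagon-positive cells (-2.79 ± 0.39). Lmtk3, a kinase, had 4 UMIs in the gate and 38 in glucagon-positive cells, and the homeobox gene Hoxd3, whose exons overlap other genes, had 2 in the gate and 28 in glucagon-positive cells. Asb4 (-3.72 ± 0.91) and the thymosin gene Tmsb15b2 (-3.30 ± 0.56) also fell. Of 30 ER folding genes 0 passed, and their median log2 fold change was 0.06, beside 0.09 over all genes, whereas the median against insulin-high cells was -1.23. The 2 comparisons share the gate cells, and the difference between them was not tested. On simulated data 9.35% of 2-fold changes were recovered against glucagon-positive cells and 25.2% against insulin-high cells, so the counts of calls are not alike in power.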

How the data were processed

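The authors deposited raw UMI counts for 25507 gene symbols, 1 table per library. Per the submitters' processing notes the build was GRCm38; the sources used here name no aligner, counter, annotation or strand setting: these are not given. Every column was used. Per the labels' protocols, inDrop capture was followed by CEL-Seq amplification.

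The members, the groups compared, the 22 gene lists (564 genes, 6 not in the tables) and the tests were chosen with earlier results of these data known. UMIs were summed per library and group. Fev-detected against Fev-undetected cells were fitted on 10 sums of 5 groups (4 residual degrees of freedom), and the other comparisons on 8 sums of 4 groups (3 residual degrees of freedom), in edgeR 4.0.16 (R 4.3.3): quasi-likelihood test, TMM scaling, filterByExpr with its defaults, and group plus library as terms. Library is a block because both groups of each comparison come from the same libraries; this is where the pairing comes from. All sums share 1 estimate of the spread. SE is the absolute log2 fold change over the square root of F. Levels are plain CPM. Gate genes and mt- genes, and Fev in the split by Fev, were kept in library sizes but not tested. Median log2 fold changes over all genes lay between 0.00 and 0.09. The fold of a library alone adds a prior count of 2. Immune-like cells had at least 5 UMIs of immune genes.

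Scrublet was run in scanpy 1.11.5. Thinned shares draw 1000 UMIs per cell. Fits were tested on simulated data with 2-fold and 4-fold changes. The changed genes were drawn only from the more abundant ones, and the simulated libraries shared the same mean profile. Recovery was not measured for genes of few UMIs. Between Fev-detected and Fev-undetected cells, 23.4% of 2-fold and 70.9% of 4-fold changes were recovered. Against double-positive cells it was 22.7% and 80.6%, against insulin-high cells 25.2% and 83.5%, and against glucagon-positive cells 9.35% and 74.2%. A low count of calls therefore does not show that groups are alike.

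Named were, per comparison, the 8 largest rises, 8 largest falls and 14 list members of lowest adjusted p (at most 2 per list), past the threshold, of 1 sign in both libraries, with at least 50 CPM in the higher group and no Gm or Rik symbol; this gave 47 results for 44 genes. Factors, serotonin and peptide genes, gate genes and the 4 markers may be given whatever their test. Others were picked after their values were seen. Exon overlaps are from GENCODE M21, which held 67 of 68 genes looked up (Tmem27 not): on the same strand Foxp1, Hoxd3, Manf, Meg3 and Tmsb15b2, on the other strand among the named Atp2a2, Cpne5, Emb, Gng12, Hoxd3, Lmtk3, Manf, Nkx2-2, Nnat, Ppp1r14c, Rpl28, Sox4 and Trp73os, where counts may be shared. Promoters are RefSeq windows on GRCm38.p6. DESeq2 1.42.0 was the second tool, except against double-positive cells with at least 3 Neurog3 UMIs, where it was not run.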

Additional observations from a re-analysis of the deposited data

How the results depend on the processing

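The count of genes called between Fev-detected and Fev-undetected cells was 1 as reported, 0 in DESeq2, 0 without the replicate block of library, 0 with at least 2000 UMIs per cell, and 2 both with gate cells holding 0 hormone UMIs and with at least 2 Fev UMIs against 0. Iapp was 1 of the genes in the last 2 settings, and its log2 fold change was -3.14 with Fev read after thinning. Against double-positive cells the count was 0 as reported, 1 without a filter on low counts and 29 with at least 3 Neurog3 UMIs. Against insulin-high cells it was 128 as reported and 37 in DESeq2, and 100 without the replicate block. Against glucagon-positive cells it was 32 as reported, 15 in DESeq2, 77 without a filter (62 higher and 15 lower, beside 13 and 19 as reported) and 25 without the replicate block; adjusted p was missing in DESeq2 for 75 genes there. The cause of these changes was not tested. The share of gate cells with Fev detected was 33.9% in library 1 and 42.4% in library 2 after thinning, where the lower depth is part of the construction. Of the 47 named results, 0 changed sign; across settings 340 values stayed on their side of the threshold or within the spread, 36 lost the call and 46 moved. Beyond DESeq2, calls were lost for Pax4 and Ppp1r14c with at least 2000 UMIs (edgeR adjusted p = 0.0594 and 0.0512) and, among cells with 0 hormone UMIs, for Vim, Pcyt1b, Ppp1r14c, Asb4 and Ppy; Rassf3, Nkx6-1, Asb4 and Ppy were lost with at least 2000 UMIs, and Pax4, Rassf3 and Rpl28 without the block. With 1 library left there is no test and no count of calls. In 1 library alone, log2 folds differed: Pax4 against insulin-high cells had 3.40 in library 1 and 1.62 in library 2, and Iapp against glucagon-positive cells -1.67 in library 1 and -3.10 in library 2. Depth limits genes of few UMIs most, since 62 and 85 cells gave 201534 and 241244 UMIs in all.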
